A study of Mus musculus with 8 samples.

Results

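Organoids grown from mouse pancreatic duct were compared with the duct tissue they are meant to stand for. The comparison used 4 of the 8 libraries of the series: 3 organoid cultures and 1 library labelled pancreatic duct epithelium. Its members were the genes with at least 1 FPKM (reads per kilobase of exon, relative to the reads counted in the library) in that epithelial library or in the mean of the 3 organoids, which gave 14984 of the 31228 genes in the table. Of these, 10939 reached 1 FPKM on both sides, 2865 only in the epithelium and 1180 only in the organoid mean. The animals were C57BL/6 mice, and neither group carried an engineered allele according to the labels. Ducts were dissected under a microscope, minced and digested with collagenase IV. The epithelial sample then went into Trizol without culture. For the organoids the digested material was embedded in Matrigel and taken after 3 to 4 passages. The expansion medium held D/F12, Glutamax, antibiotics, a B27 supplement without vitamin A, 30% Wnt3A-conditioned medium, EGF at 50 ng/mL, R-Spondin-1 at 100 ng/mL, Noggin at 25 ng/mL, FGF10 at 100 ng/mL, nicotinamide at 10 mM, N-acetylcysteine at 1 mM and the kinase inhibitor Y27632 at 10 µM. Wnt3A and Y27632 were withdrawn once organoids with a lumen had formed. The labels do not say whether the 3 cultures came from separate animals or how many animals were pooled for the epithelium.

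Pancreatic ducts are tubes of epithelium that collect digestive enzymes from the acini, secrete bicarbonate and fluid through channels and carbonic anhydrases, and carry the juice to the intestine. Duct cells are marked by keratins 7 and 19 and by transcription factors such as Sox9, while the wall around the larger ducts holds fibroblasts, smooth muscle, vessels, nerves and immune cells. Duct organoids are grown as hollow spheres of epithelium kept dividing by Wnt, R-spondin and EGF signals, with Noggin holding back bone morphogenetic protein (BMP) signals.

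Depth, worked back from the FPKM, was 15455993 reads or read pairs in the epithelium and 15405377, 17592185 and 20828217 in organoids 1, 2 and 3. Values below are FPKM scaled between libraries by a trimmed mean of log ratios. A difference is the mean over the 3 organoids of log2(scaled FPKM + 1) minus the same value in the epithelium, and its SD is over the 3 organoids. A pseudocount of 1 makes it understate the change of weakly read genes. The epithelium is 1 library, so no p-value was computed and nothing here measures how far another epithelial sample would lie from this one. Across the members the organoids correlated with each other at 0.953 to 0.971 and with the epithelium at 0.547 to 0.579 (Pearson's r across genes, a description of these libraries). Restricted to the 6892 genes with at least 10 FPKM on either side, the correlation with the epithelium was 0.170 to 0.214. That restriction drops genes low on both sides and keeps those high on 1 side alone, which can lower the correlation by itself.

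Organoids 2 and 3 each stood apart in a set of genes. Over the 15 ways to choose 2 of the 6 organoids of the series, genes were counted that lay more than 2-fold higher, or lower, in both epithelia and those 2 organoids than in the other 4. Organoid 2 with bile duct organoid 1 gave 70 higher and 9 lower genes, organoids 1 and 2 gave 16 higher and 0 lower, and the other 13 choices gave 0 to 4 higher. The 16 are described here because they set organoid 3 against both other cultures of its own duct. In these 16 genes of the table, both epithelia of the series (bile duct and pancreatic duct) and organoids 1 and 2 were each more than 2-fold above organoid 3 and the 3 bile duct organoids. The set held mitochondrial ribosomal RNAs, a nuclear ribosomal RNA entry, the mitochondrial leucyl-tRNA synthetase Lars2, the chaperone gene Hsp90aa1, the ribosomal protein gene Rpl12 and 6 Rrp genes, which are named for roles in ribosomal RNA processing. Hsp90aa1 read 121 FPKM in the epithelium and 268, 234 and 2.68 in the organoids. The mitochondrial 16S ribosomal RNA gene mt-Rnr2 read 1086 FPKM in the epithelium and 412, 371 and 3.01 in the organoids. In both, organoid 3 lay far under the other 3 libraries, and without it the difference of mt-Rnr2 was -1.47 against -3.68 and that of Hsp90aa1 1.04 against -0.99. No label names a batch that separates these libraries, and the cause was not tested. Only 3 of the 16 were among the genes counted as different between organoids and epithelium below, so leaving them out moved the counts by 3 genes.

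**Figure D1:**
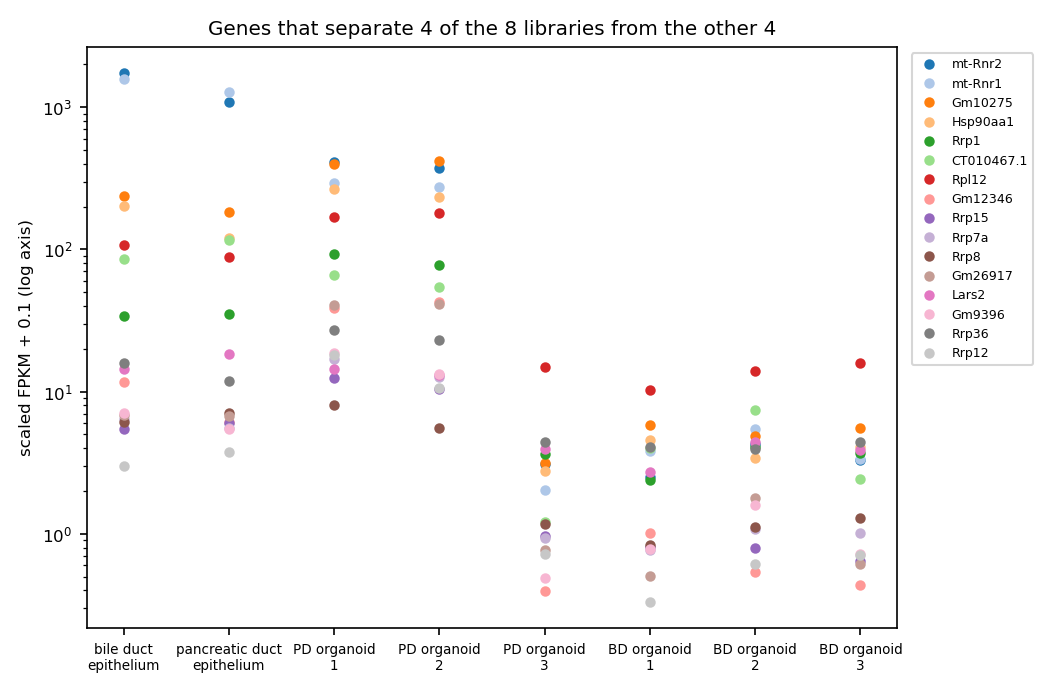
Scaled FPKM + 0.1 (log axis) of the 16 genes that separate both epithelia and pancreatic duct (PD) organoids 1 and 2 from the other 4 libraries, with 1 point per gene and library. PD organoid 3 sits with the bile duct (BD) organoids, for example at 2.68 for Hsp90aa1 against 268 in PD organoid 1.

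A gene was counted as higher or lower in organoids where the difference was at least 1 (2-fold) and the 3 organoids were all above or all below the epithelium. By this rule 2310 members (15.4%) were higher and 3743 (25.0%) were lower, together 40.4%, and the median difference over all members was -0.05. Counts in the gene lists below are to be read beside these shares. Of the lower genes 2479 had reached 1 FPKM in the epithelium alone, and of the higher genes 592 in the organoid mean alone, so their direction was set by the choice of members. Below, members of a gene list that reached 1 FPKM on one side alone are called low by choice (epithelium alone) or high by choice (organoid mean alone), and their direction is no result. Differences were larger among the lower genes, but most of these had reached 1 FPKM in the epithelium alone. The contrast in size was not computed for genes at 1 FPKM on both sides. A difference of at least 3 (8-fold) was seen in 187 higher and 966 lower genes, and one of at least 6 (64-fold) in 5 higher and 133 lower genes. Among protein-coding members, 355 of the 3180 lower genes (11.2%) had 0 reads in all 3 organoids. Over all members the median range over organoids was 0.34, against a median size of difference of 0.78. Genes near 0 in every organoid add small ranges to this. Among the 6053 counted genes the range exceeded the difference in 257 (4.25%), a share that the counting rule itself keeps low.

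How many genes were higher depended on what the libraries were scaled to. Without scaling, 48.6% of counted genes were higher and 51.4% lower, against 38.2% and 61.8% with it, and the median over all members moved to 0.19. Because the epithelial library held RNA of many tissues, levels were also expressed per unit of general epithelial transcript, by equalising the median of 25 genes that most epithelia share (Epcam, Cdh1, keratins 8 and 18, claudins and others). On this pan-epithelial scale the median over all members moved to -2.58, 230 members (1.53%) were higher and 13409 (89.5%) were lower. List counts and medians on this scale are to be read beside these values. Acinar cells are epithelial too, so this scale is per epithelial transcript and not per duct cell. Most list medians below are given on both scales.

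**Figure D2:**
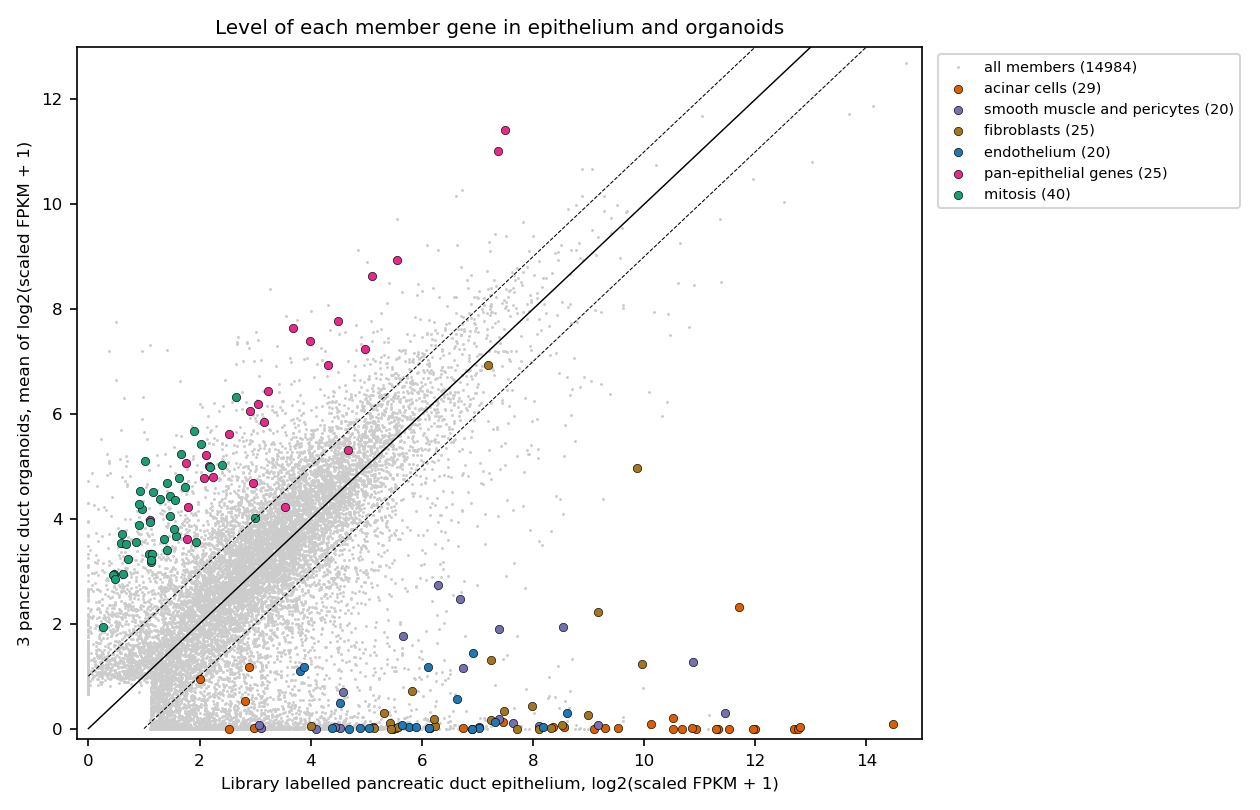
Each member gene by its log2(scaled FPKM + 1) in the library labelled pancreatic duct epithelium (x) and by the mean of that value in 3 pancreatic duct organoids (y), with equality as a solid line and 2-fold differences as dashed lines. Acinar, smooth muscle, fibroblast and endothelial genes mostly lie along the bottom, and all 40 mitosis genes and 23 of 25 pan-epithelial genes lie above the upper dashed line.

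The genes highest above the epithelium (protein-coding, at least 10 scaled FPKM on the higher side) included Cxcl5, Sprr2a3, Gpx2, Anxa8, S100a14, Areg, Gc, Fgfbp1, Wnt7b and Cdh17. Cxcl5 (chr5:90759360-90761624, GRCm38), a chemokine that attracts neutrophils, read 0.404 FPKM in the epithelium and 179, 351 and 158 in the organoids, a difference of 7.26 ± 0.62 (SD, n = 3) from 10 reads in the epithelium. All 3 organoids lay far above the epithelium. Gpx2 (chr12:76792333-76795554), a glutathione peroxidase of gut epithelium, read 0.958 FPKM in the epithelium and 162, 64.5 and 294 in the organoids, a difference of 6.23 ± 1.09. Anxa8 (chr14:34085981-34100571), a calcium-dependent membrane-binding protein, read 1.16 FPKM in the epithelium and 223, 230.1 and 76.5 in the organoids. S100a14 (chr3:90526856-90528837), a small calcium-binding protein of epithelia, read 1.66 FPKM in the epithelium and 294, 129 and 84.5 in the organoids. In these 3 genes the cultures differed by several-fold among themselves, and each lay far above the epithelium. Sprr2a3, a cornified envelope gene with near-identical relatives whose reads may be shared, differed by 6.84 ± 0.58. Gc, the vitamin D binding protein, differed by 5.34 ± 1.30 with organoid 2 highest at 226. All 10 stayed higher on the pan-epithelial scale, with differences of 2.58 for Wnt7b to 5.62 for Cxcl5. They were picked for the widest rises with all 3 organoids above the epithelium, so their direction is no result. Most of them, Cxcl5, Gpx2 and Areg included, had also reached 1 FPKM in the organoid mean alone.

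The genes farthest below the epithelium were 10 genes of the exocrine pancreas (Ctrb1, Prss2, Try4, Try5, Pnlip, Clps, Cela2a, Cpa1, Pnliprp1 and Cela3b), the smooth muscle actin gene Acta2 and Reg2, a secreted lectin of the Reg family. Ctrb1 (chr8:111686519-111691010, GRCm38), which encodes chymotrypsinogen, read 22879 FPKM in the epithelium and was left with 1 read in each organoid, a difference of -14.40. Pnlip (chr19:58670365-58681786), pancreatic lipase, read 4097 FPKM in the epithelium and had 0 reads in every organoid, which is at least 169518-fold lower when 3 reads over the 3 organoids together are taken as the floor. Cela2a (chr4:141814962-141826160), an elastase, was at least 95858-fold lower and Cpa1 (chr6:30639218-30645363), a carboxypeptidase, at least 84778-fold lower on the same floor. Such floors cover counting error only. The trypsinogen genes Prss2, Try4 and Try5 are near-identical, so their split between genes is uncertain. All 29 acinar members were lower, with a median difference of -10.04 (-12.34 on the pan-epithelial scale), and 14 of 30 listed acinar genes had 0 reads in all organoids. Summed over the list, scaled FPKM were 75623 in the epithelium and 6.03, 7.36 and 8.91 in the organoids. The elastase gene Cela1 made up 4.29, 3.42 and 4.36 of the organoid sums, against 3351 in the epithelium.

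The library labelled pancreatic duct epithelium held the transcripts of several tissues. Its duct keratin genes Krt19 and Krt7 read 97.6 and 6.25 FPKM, under 2825 FPKM for Acta2 and 22879 FPKM for Ctrb1. Acinar genes made up 16.6% of its summed FPKM, smooth muscle and pericyte genes 1.56%, fibroblast genes 1.24%, endothelial genes 0.412% and leukocyte genes 0.174%, while the 25 pan-epithelial genes made up 0.137% against 1.62% to 3.03% in the organoids. All 20 smooth muscle genes were lower, with a median of -5.55 (-8.16 on the pan-epithelial scale). So were all 20 endothelial genes, at -5.66 (-8.03), and all 22 leukocyte genes, at -4.09 (-6.32). Of 25 fibroblast genes 24 were lower, with a median of -6.05 (-8.37 on the pan-epithelial scale). Of 15 nerve and Schwann cell genes 14 were lower, at -3.40 (-5.79), and of 15 islet genes 14, at -3.02 (-5.74), where the medians over all 20 and 26 listed genes with no minimum were -3.00 and -1.82. Many of these members were low by choice. They were 13 of 20 smooth muscle, 16 of 20 endothelial, 20 of 22 leukocyte, 20 of 25 fibroblast, 14 of 15 nerve and 13 of 15 islet genes, and 26 of the 29 acinar genes. In bulk RNA, fewer cells of a type and less RNA per cell cannot be told apart.

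Some markers of these tissues were near 0 in the cultures. Acta2 (chr19:34241090-34255336) read 2825 FPKM in the epithelium and 0.177, 0.124 and 0.421 in the organoids. Col1a1, the main collagen of fibroblasts, read 253 FPKM in the epithelium and 0.106, 0.169 and 0.867 in the organoids. Pecam1, an adhesion molecule of endothelium, read 287 FPKM in the epithelium and 0.0101, 0.0178 and 0.0213 in the organoids. Lyz2, a lysozyme of macrophages and neutrophils, read 309 FPKM in the epithelium and 0.815, 0.716 and 0.0671 in the organoids. Insulin 2 (Ins2, which shares sequence with Ins1) read 90.3 FPKM in the epithelium and had 0 reads in every organoid. No culture reached 1 FPKM in any of these. Other list genes did, of which 4 are given because their levels in the cultures were seen to be high. Carboxypeptidase E (Cpe), which processes prohormones and made up most of the islet list's sum in the cultures, read 270.5 FPKM in the epithelium and 34, 90.4 and 13.5 in the organoids. Mbp, the myelin basic protein, read 30.3 FPKM in the epithelium and 15.7, 12.4 and 13.3 in the organoids, and Cd68, a lysosomal protein of macrophages, read 13.6 FPKM in the epithelium and 2.26, 10.6 and 4.25 in the organoids. The one fibroblast gene that was not lower was Fbln2, a fibulin of the extracellular matrix, at 145 FPKM in the epithelium and 116, 349.7 and 42.7 in the organoids, where the organoids lay on both sides of the epithelium. Haemoglobin genes, which share reads among themselves, read 407 FPKM in the epithelium and 0.0777, 3.07 and 0 in the organoids for Hba-a1. Hepatocyte genes numbered 8 lower and 0 higher of 12 (3 high and 6 low by choice, median -1.84, -4.06 on the pan-epithelial scale and -0.24 with no minimum), and among them Ttr, a carrier of thyroxine and retinol, stood at 80.7 FPKM in the epithelium and 8.03, 5.73 and 77.4 in the organoids. Adipocyte genes numbered 9 lower and 0 higher of 11 (9 low by choice, median -2.55, -4.64 on the pan-epithelial scale). Mesothelial genes numbered 8 lower of 10 (6 low by choice, median -2.11, -4.35 on the pan-epithelial scale), and the 2 that were higher, Krt19 and Msln, are also epithelial genes.

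Genes shared by epithelia were higher. Of 25 such genes 23 were higher and 0 lower, with a median of 3.09. Scaling to this list sets the list's own level, so its pan-epithelial median of 0.47 carries no information. Epcam, an adhesion molecule of simple epithelia, read 46.2 FPKM in the epithelium and 421, 768 and 366 in the organoids. Cdh1, which encodes E-cadherin, read 33.3 FPKM in the epithelium and 437, 491 and 292 in the organoids. Cldn4, a tight junction claudin, read 11.8 FPKM in the epithelium and 175, 477 and 93.9 in the organoids. The 3 organoids were above the epithelium in all 3 genes. The members that were not counted were the transcription factor Elf3 (difference 0.64) and the serine protease Prss8 (difference 0.68).

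Of 21 transcription factors of the duct lineage 12 were higher and 1 lower (3 high by choice). Their median difference was 1.56, and -1.17 on the pan-epithelial scale, where 3 were higher and 12 lower. Sox9, which maintains duct and progenitor identity, read 7.76 FPKM in the epithelium and 59.4, 52.2 and 82.2 in the organoids, a difference of 2.88 ± 0.33. Pdx1, a factor of the pancreatic bud that adults keep mainly in islets, read 2.16 FPKM in the epithelium and 20.0, 13.5 and 17.5 in the organoids. Both factors were higher in every organoid. The largest differences of the list were those of Hnf4a (3.80 FPKM in the epithelium and 94.2, 60.2 and 69.5 in the organoids), a factor of hepatic and intestinal epithelium, Klf5 (difference 3.91 ± 0.09) and Sox4 (difference 3.90 ± 0.73). On the pan-epithelial scale the difference of Sox9 was 0.18 and that of Hnf4a 1.38. Hes1, a Notch target, read 43.7 FPKM in the epithelium and 35.1, 46.4 and 32.1 in the organoids. Gata6 read 21.8 FPKM in the epithelium and 19.3, 19.1 and 24.6 in the organoids. Neither differed by as much as 2-fold. The 1 lower member was Prox1 (13.7 FPKM in the epithelium and 0.647, 2.54 and 0.936 in the organoids), which lymphatic endothelium also expresses and which the endothelial list holds as well.

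Of 29 duct markers, 16 were higher and 4 lower, with a median of 1.36 (-1.08 on the pan-epithelial scale, 2 high and 3 low by choice). Krt19 (chr11:100140810-100148665, GRCm38) read 97.6 FPKM in the epithelium and 2039, 1153 and 642 in the organoids, a difference of 3.54 ± 0.83, and Krt7 (chr15:101411043-101430313) read 6.25 FPKM in the epithelium and 296, 157 and 91.3 in the organoids, a difference of 4.49 ± 0.84. In both keratins organoid 1 was highest and organoid 3 lowest. Car2, a carbonic anhydrase that supplies bicarbonate, read 5.91 FPKM in the epithelium and 164, 141 and 92.2 in the organoids. Wfdc2, a secreted protease inhibitor, read 12.5 FPKM in the epithelium and 186, 317 and 184 in the organoids. Cftr, the chloride and bicarbonate channel of duct fluid, was weakly read at 0.630 FPKM in the epithelium and 2.24, 2.13 and 3.06 in the organoids. The marker Spp1 (osteopontin) read 183 FPKM in the epithelium and 261, 1400.4 and 835 in the organoids. The lower markers were Aqp1, a water channel that endothelium also uses, at 242 FPKM in the epithelium and 30.9, 11.7 and 132 in the organoids, the secretin receptor gene Sctr at 4.19 FPKM in the epithelium, the claudin gene Cldn10 at 3.20 FPKM there, and the anion exchanger gene Slc26a3 at 1.41 FPKM in the epithelium and 0.00991, 0.0522 and 0.0139 in the organoids. Sctr and Cldn10 had 0 reads in all organoids, which is at least 159-fold and at least 156-fold lower on the floor of 3 reads. The water channel Aqp5 went the other way from Aqp1, at 3.57 FPKM in the epithelium and 45.4, 17.9 and 146 in the organoids. On the pan-epithelial scale Krt7 differed by 1.81, Krt19 by 0.71 and Cftr by -0.60.

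**Figure D3:**
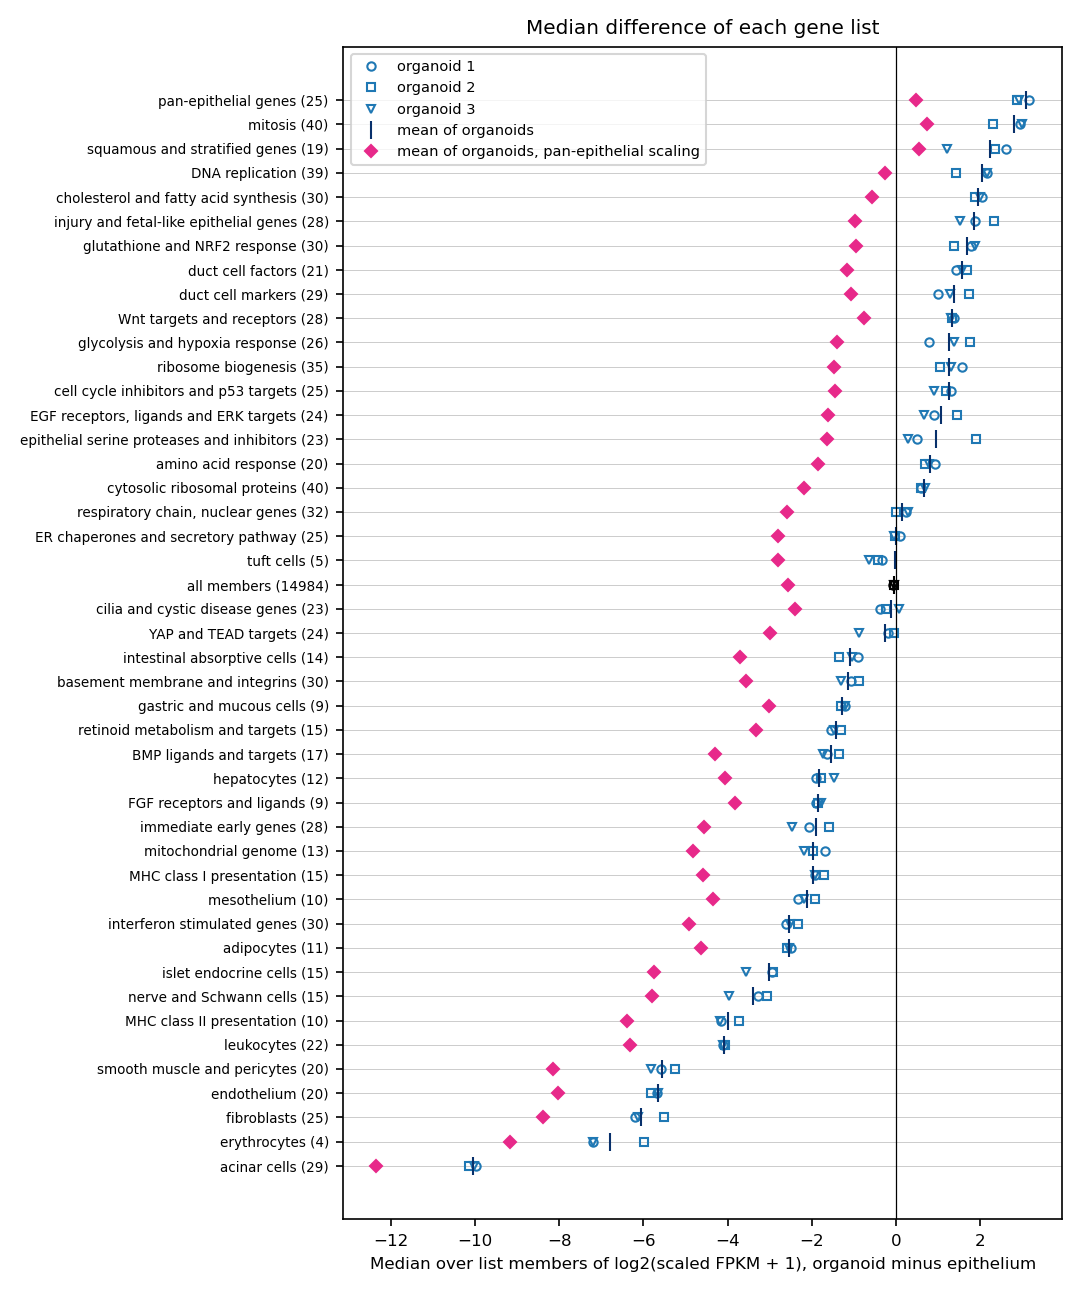
Median over the members of each gene list (number in brackets) of log2(scaled FPKM + 1) in organoids minus epithelium, for each of 3 organoids (open symbols), for their mean (bars) and for their mean on the pan-epithelial scale (diamonds). Acinar genes are lowest at -10.04 and pan-epithelial genes highest at 3.09, and the pan-epithelial scale moves all lists to the left, with only 3 of 44 medians above 0.

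Genes of other epithelia were split by gene. Among 14 intestinal absorptive genes, 5 were higher and 8 lower (3 high and 6 low by choice, median -1.10, -3.70 on the pan-epithelial scale). Higher were Cdx2, a homeobox factor of intestine (0.133 FPKM in the epithelium and 20.1, 4.34 and 14.2 in the organoids), the brush-border protein gene Vil1 (3.01 FPKM in the epithelium and 103, 49.7 and 73.8 in the organoids), the galectin gene Lgals4 (7.09 FPKM in the epithelium and 403, 83 and 201 in the organoids), the cadherin gene Cdh17 (0.942 FPKM in the epithelium and 113, 40.7 and 43.3 in the organoids) and Phgr1 (difference 1.77). In all 5 of these organoid 1 was highest and organoid 2 lowest. Lower were the digestive enzymes and transporters, among them aminopeptidase Anpep (41.4 FPKM in the epithelium and 0.107, 0.0268 and 0.0534 in the organoids) and the fatty acid binding protein gene Fabp1 (7.90 FPKM in the epithelium and 0 reads in the organoids). With a minimum of 10 FPKM the intestinal median turned to 4.19, with fewer members left, and with no minimum it was -0.65. Of 9 gastric and mucous genes 6 were lower (1 high and 4 low by choice, median -1.28, -3.03 on the pan-epithelial scale and -0.35 with no minimum), led by the trefoil factor gene Tff2 at 286 FPKM in the epithelium and 9.73, 13.9 and 8.01 in the organoids, and Tff3 was the 1 higher gene at 6.11 FPKM in the epithelium and 108, 28.8 and 27.4 in the organoids. Only 5 of the 14 listed tuft cell genes were members, and 2 of them were lower (1 high and 2 low by choice, median -0.03, -2.80 on the pan-epithelial scale). The tuft medians were -0.35, -0.42 and -0.65 in organoids 1, 2 and 3 taken singly, all below the median of their mean.

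Squamous and stratified genes, which barrier epithelia use to build a cornified layer, were members in 19 of 30 cases, of which 16 were higher and 3 lower. Of the 19, 9 were high and 1 low by choice. The median over members was 2.23, or 1.23 over all listed genes with no minimum. On the pan-epithelial scale the median over members was 0.53, where 7 were higher and 4 lower. A pan-epithelial median with no minimum was not computed. Pkp1, a desmosomal plaque protein, read 0.120 FPKM in the epithelium and 35.8, 30.4 and 12 in the organoids. Lor, which encodes loricrin, read 0.127 FPKM in the epithelium and 18.3, 20.2 and 13.6 in the organoids. Krt14, a basal cell keratin, read 0.30 FPKM in the epithelium and 15.3, 17.1 and 1.20 in the organoids. Krt6a, which shares sequence with Krt6b, read 0.10 FPKM in the epithelium and 25, 6.51 and 1.55 in the organoids. These 4 genes were under 1 FPKM in the epithelium and so high by choice, and organoid 3 was the lowest culture in each. The basal cell master factor Trp63 was not a member (0.197 FPKM in the epithelium and 0, 0.00660 and 0.0316 in the organoids), and neither was Krt5 (0 FPKM in the epithelium and 0.375, 0.0759 and 0.0202 in the organoids). Of 28 genes linked to injured or fetal-like epithelium, 18 were higher and 4 lower (4 high and 1 low by choice, median 1.85, and -0.99 on the pan-epithelial scale). Cd44, a hyaluronan receptor, read 15 FPKM in the epithelium and 221, 379 and 182 in the organoids. Msln, mesothelin, read 31.3 FPKM in the epithelium and 760.2, 443 and 317 in the organoids. Clu, the secreted chaperone clusterin, was among the 10 highest genes of the organoids at 472 FPKM in the epithelium and 1661, 2572 and 999 in the organoids. Ly6a, which marks fetal-like gut epithelium and also endothelium, read 403 FPKM in the epithelium and 785, 216 and 389.5 in the organoids and was on both sides of the epithelium.

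Several factors of the medium act through pathways whose genes were measured. Wnt signals reach receptors of the Fzd and Lrp families, R-spondins bind Lgr receptors, and Rnf43 and Znrf3 remove Wnt receptors as a feedback. Of 28 Wnt genes 18 were higher and 6 lower (5 high and 5 low by choice, median 1.32, and -0.76 on the pan-epithelial scale). Among ligands Wnt7b (chr15:85535439-85581821) read 2.12 FPKM in the epithelium and 127, 127 and 58.4 in the organoids. Wnt7a read 2.71 FPKM in the epithelium and 22.3, 71.9 and 5.66 in the organoids. Among receptors Lgr4 read 5.91 FPKM in the epithelium and 26.8, 25 and 35.3 in the organoids, and Lgr5, a stem cell marker, was weakly read at 0.345 FPKM in the epithelium and 0.652, 6.67 and 5.95 in the organoids, with organoid 1 close to the epithelium. Among feedback genes Rnf43 read 2.42 FPKM in the epithelium and 20.6, 22 and 29.8 in the organoids and Znrf3 2.24 FPKM in the epithelium and 4.24, 5.57 and 8.85 in the organoids. Axin2, a much used Wnt target, read 4.54 FPKM in the epithelium and 6.01, 6.20 and 14.8 in the organoids and was not counted (difference 0.74 ± 0.67), organoid 3 being the highest. The target genes Ccnd1 (cyclin D1) and Myc differed by 3.25 ± 0.36 and 2.36 ± 0.31. The lower genes Nkd1 (21 FPKM in the epithelium and 0, 0.0486 and 0.0194 in the organoids) and Apcdd1 (13.1 FPKM in the epithelium and 0.0451, 0.178 and 0.0158 in the organoids), inhibitors of Wnt signalling, lay near 0 in the organoids.

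EGF family ligands bind Egfr and its relatives and act through ERK, whose targets include the Dusp, Spry and Etv genes. Of 24 members 12 were higher and 3 lower (3 high by choice, median 1.06, and -1.61 on the pan-epithelial scale). The ligand Areg (chr5:91139599-91148432) read 0.558 FPKM in the epithelium and 111, 109 and 39.5 in the organoids, a difference of 5.67 ± 0.84, and the ligand Ereg read 0.839 FPKM in the epithelium and 26, 21.3 and 8.41 in the organoids. Organoid 3 was the lowest culture in both. The receptor genes Egfr (difference 1.44), Erbb2 (difference 1.45) and Erbb3 (difference 1.68) were all higher, and on the pan-epithelial scale they differed by -1.19, -1.27 and -1.06. The phosphatase gene Dusp4 read 1.95 FPKM in the epithelium and 20.4, 43.8 and 25.6 in the organoids. The ETS factor gene Etv4 read 0.703 FPKM in the epithelium and 9.05, 14.4 and 11 in the organoids. Both were above the epithelium in every culture. Dusp6, another feedback phosphatase, read 51.5 FPKM in the epithelium and 47.4, 39.9 and 27.3 in the organoids. Egr1, an immediate target, read 376 FPKM in the epithelium and 22.8, 46.2 and 43.7 in the organoids. ERK target genes were found on both sides. In the FGF list 6 of 9 members were lower (1 high and 4 low by choice, median -1.85, -3.83 on the pan-epithelial scale), including Fgfr1 (16.9 FPKM in the epithelium and 0, 0.466 and 0.0760 in the organoids). Fgfr2, the main receptor of FGF10 in epithelium, read 9.32 FPKM in the epithelium and 4.93, 4.97 and 14.6 in the organoids and was not counted, while Fgfr4 (6.57 FPKM in the epithelium and 20.4, 14 and 25.7 in the organoids) and the secreted carrier gene Fgfbp1 (0.499 FPKM in the epithelium and 60.6, 56.7 and 38.7 in the organoids) were higher.

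BMP genes were lower in 11 of 17 members and higher in 0, with a median of -1.55 (-4.30 on the pan-epithelial scale, 7 low by choice). The Id genes, which BMP signals switch on directly, went apart. Id4 read 23.8 FPKM in the epithelium and 0.152, 0.10 and 0.186 in the organoids. Id3 read 140.4 FPKM in the epithelium and 15.4, 5.72 and 12.9 in the organoids. Both were below it in every culture. Id1 read 184 FPKM in the epithelium and 203, 112 and 134 in the organoids. Id2 read 89.1 FPKM in the epithelium and 121, 66.1 and 87.7 in the organoids. Id1 and Id2 lay on both sides of the epithelium. Of the ligands, Bmp4 read 31 FPKM in the epithelium and 10.4, 15.7 and 5.79 in the organoids. Bmp6 read 26.9 FPKM in the epithelium and 0.733, 1.98 and 0.385 in the organoids. Endothelium and stroma also express several of these genes, and their part in the lower values was not tested.

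In the retinoid list, 9 of 15 members were lower and 2 higher (6 low by choice, median -1.44, -3.33 on the pan-epithelial scale and -0.56 with no minimum). Aldh1a1, which makes retinoic acid, read 85.8 FPKM in the epithelium and 5.84, 3.70 and 2.32 in the organoids. Cyp26b1, which breaks it down, read 18 FPKM in the epithelium and 0.0118, 0.0207 and 0.0825 in the organoids. The receptor gene Rarb, itself a target of retinoic acid, read 5.09 FPKM in the epithelium and 0.0832, 0.0731 and 0.102 in the organoids. Rdh10, which oxidises retinol, was the highest above the epithelium at 5.28 FPKM in the epithelium and 70.2, 176 and 23 in the organoids. YAP and TEAD targets, which respond to mechanical load, were split into 8 higher and 10 lower of 24 (median -0.27, -3.00 on the pan-epithelial scale). Ankrd1 read 13.8 FPKM in the epithelium and 199, 243 and 46.6 in the organoids. Ctgf read 185 FPKM in the epithelium and 28.5, 24.3 and 10.4 in the organoids. Cyr61 read 414 FPKM in the epithelium and 70.5, 209 and 46.8 in the organoids.

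**Figure D4:**
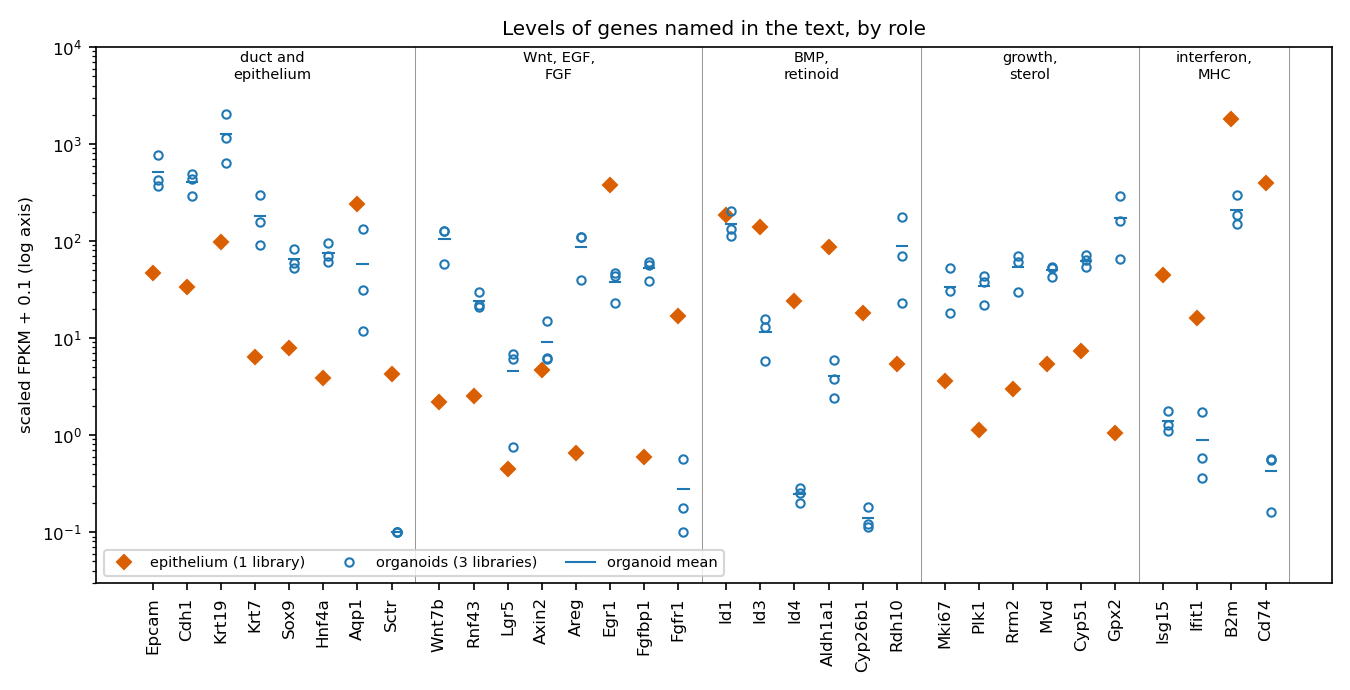
Scaled FPKM + 0.1 (log axis) of genes named in the text, grouped by role, with the single epithelial library as a diamond, the 3 organoids as circles and their mean as a bar. Krt19, Areg and Plk1 lie above the epithelium in all 3 organoids and Aqp1, Id4 and Cd74 below it, while the Id1 circles lie on both sides.

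Genes of mitosis and most genes of DNA replication were higher. All 40 mitosis genes were, although 17 of them were high by choice. The list's medians were 2.93, 2.30 and 2.99 in organoids 1, 2 and 3, and the median of the mean stayed above 0 on the pan-epithelial scale at 0.74, where 11 were higher and 1 lower. Plk1 (chr7:122159439-122169873, GRCm38), a kinase that drives entry into mitosis, read 1.03 FPKM in the epithelium and 37.8, 22 and 43.8 in the organoids, a difference of 4.08 ± 0.51. Ccnb1 and Ccnb2, the B-type cyclins, read 0.911 FPKM in the epithelium and 26.1, 14.3 and 28.4 in the organoids and 2.75 FPKM in the epithelium and 57.3, 35.1 and 63.6 in the organoids. Cdc20, which activates the anaphase-promoting complex, read 5.32 FPKM in the epithelium and 105, 50.8 and 92.6 in the organoids. Organoid 2 was the lowest culture in all 4 genes. Mki67, the proliferation marker Ki-67, read 3.54 FPKM in the epithelium and 30.3, 18 and 52.2 in the organoids. Of 39 DNA replication genes 34 were higher and 0 lower, with a median of 2.04 that was -0.26 on the pan-epithelial scale, where 1 was higher and 12 lower. Of the 39, 7 were high by choice. Rrm2, a subunit of ribonucleotide reductase, read 2.91 FPKM in the epithelium and 69.6, 29.8 and 60.8 in the organoids. Mcm7, a subunit of the replicative helicase, read 6.63 FPKM in the epithelium and 57.8, 34.2 and 56.4 in the organoids.

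The promoters of these genes share short sequence elements, shown here for the 4 mitosis genes above (RefSeq, GRCm38.p6, 140 bases before the start site, 5′ to 3′ in the gene's direction). Capitals mark the CCAAT box, CCAAT or its reverse complement, and in Cdc20 also the cell cycle element CHR, searched as TTTGAA on both strands.
Ccnb2, chr9:70421555-70421694, minus strand: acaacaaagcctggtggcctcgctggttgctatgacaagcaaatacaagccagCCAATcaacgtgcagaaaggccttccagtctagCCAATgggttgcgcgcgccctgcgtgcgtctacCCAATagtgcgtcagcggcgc
Ccnb1, chr13:100786487-100786626, minus strand: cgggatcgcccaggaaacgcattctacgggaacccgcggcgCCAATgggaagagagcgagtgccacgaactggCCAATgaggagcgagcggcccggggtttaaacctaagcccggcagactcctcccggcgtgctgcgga
Cdc20, chr4:118437344-118437483, minus strand: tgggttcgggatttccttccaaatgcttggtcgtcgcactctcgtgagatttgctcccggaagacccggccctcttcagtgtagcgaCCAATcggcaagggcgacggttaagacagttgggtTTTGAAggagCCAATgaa
Plk1, chr7:122159295-122159434, plus strand: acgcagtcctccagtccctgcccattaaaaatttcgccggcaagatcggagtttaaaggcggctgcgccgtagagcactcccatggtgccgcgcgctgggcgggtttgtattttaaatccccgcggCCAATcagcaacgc
Ccnb2 held 3 CCAAT boxes in this window, whose first bases lie at -87, -54 and -21 from the start, Ccnb1 and Cdc20 held 2 and Plk1 held 1. Over the 250 bases before the start, a CCAAT box stood in 26 of 33 mitosis promoters (78.8%) against 35.3% of 15777 promoters, with 1.76 matches per promoter against 0.522. The letters TTTGAA stood in 11 of the 33 (33.3%) against 12.4% of all. For the 32 replication promoters found, the E2F letters TTTNNCGC stood in 9 (28.1%) against 5.75% of all and 6.06% of mitosis promoters. These are letter matches in a window and not measured binding.

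Cell cycle inhibitors and p53 targets were also mostly higher, in 14 of 25, with 3 lower (1 high and 1 low by choice, median 1.25, -1.46 on the pan-epithelial scale). Cdkn2a, which encodes the inhibitors p16 and p19, read 0.257 FPKM in the epithelium and 49, 26.1 and 39.3 in the organoids, a difference of 4.91 ± 0.45, and the neighbouring Cdkn2b read 2.16 FPKM in the epithelium and 52.9, 76.7 and 25.6 in the organoids. Both were above the epithelium in every culture. The p53 targets Bax (difference 2.77) and Phlda3 (difference 2.51) were higher, while Cdkn1a (difference 0.97) and Mdm2 (difference 0.92) were just under the 2-fold line. Cdkn1c (5.17 FPKM in the epithelium and 0.712, 0.679 and 1.23 in the organoids), an inhibitor of quiescent cells, and the death receptor gene Fas (31 FPKM in the epithelium and 1.51, 1.11 and 1.57 in the organoids) were lower. Ribosome biogenesis genes were higher in 24 of 35 and lower in 0 (median 1.25, -1.47 on the pan-epithelial scale), for example the nucleolar methyltransferase gene Fbl at 9.03 FPKM in the epithelium and 48.8, 32.3 and 50.4 in the organoids. Cytosolic ribosomal protein genes differed little, with 6 of 40 higher, near the 15.4% of all members, and a median of 0.66 (-2.18). They have many processed copies, and values such as Rps2, at 58.8, 53.3 and 686 in the organoids against 17.5, are uncertain. Without organoid 3 the difference of Rps2 was 1.62 against 2.82.

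Genes of sterol synthesis were mostly higher. Of 30 genes of cholesterol and fatty acid synthesis 27 were higher and 0 lower (2 high by choice, median 1.95, -0.58 on the pan-epithelial scale, where 1 was higher and 12 lower). Mvd (chr8:122433601-122443422), a decarboxylase of the mevalonate pathway, read 5.26 FPKM in the epithelium and 54.4, 42.9 and 52.7 in the organoids, a difference of 3.02 ± 0.18. Cyp51 (chr5:4081145-4104746), which demethylates lanosterol, read 7.21 FPKM in the epithelium and 71, 54.1 and 63.4 in the organoids. Hmgcs1, which makes HMG-CoA, read 29.9 FPKM in the epithelium and 149.6, 145 and 141 in the organoids. All 3 cultures were above the epithelium in these genes. Lss, which closes the sterol rings, read 1.69 FPKM in the epithelium and 19, 14.5 and 19.9 in the organoids. Scd1 was the lowest of the list at 87.4 FPKM in the epithelium and 35.6, 37 and 72.2 in the organoids, beside its paralog Scd2 at 77.6 FPKM in the epithelium and 441, 582 and 668 in the organoids. The promoter of Hmgcs1 (RefSeq, GRCm38.p6, 140 bases before the start) is shown with the sterol response letters TCACNCCAC and the CCAAT box (here as its reverse complement) in capitals.
Hmgcs1, chr13:119690211-119690350, plus strand: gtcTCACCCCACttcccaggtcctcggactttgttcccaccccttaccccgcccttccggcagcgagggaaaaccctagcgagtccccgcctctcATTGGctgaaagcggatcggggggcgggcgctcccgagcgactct
It was the only 1 of 20 sterol and fatty acid promoters found with these sterol response letters in 250 bases (5.0% against 1.11% of all), while 16 of the 20 (80.0%) held a CCAAT box.

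Glutathione and NRF2 response genes, which handle electrophiles and oxidants, were higher in 21 of 30 and lower in 3 (4 high by choice, median 1.67, -0.95 on the pan-epithelial scale). The glutathione transferase gene Gsta4 read 27.9 FPKM in the epithelium and 857, 416 and 481 in the organoids. Gsto1 read 10.8 FPKM in the epithelium and 281, 269 and 169 in the organoids. Gclc, which catalyses the first step of glutathione synthesis, read 12.9 FPKM in the epithelium and 80.6, 58.1 and 63.1 in the organoids. All 3 were above the epithelium in each culture. The cystine carrier gene Slc7a11 read 0.287 FPKM in the epithelium and 4.87, 10.7 and 10.5 in the organoids. Against this, Nqo1, a much used NRF2 target, was lower at 19.3 FPKM in the epithelium and 6.06, 4.53 and 3.95 in the organoids, Hmox1 read 14 FPKM in the epithelium and 11.5, 17.1 and 7.51 in the organoids, and the secreted peroxidase gene Gpx3 was lower at 87.8 FPKM in the epithelium and 6.72, 14.6 and 2.56 in the organoids. Glycolysis and hypoxia genes were higher in 13 of 26 and lower in 3 (median 1.26, -1.40 on the pan-epithelial scale). Pkm, pyruvate kinase, read 67.3 FPKM in the epithelium and 627, 546 and 625 in the organoids. Ldha, lactate dehydrogenase, read 72.7 FPKM in the epithelium and 270.1, 358 and 396 in the organoids. Car9, a carbonic anhydrase induced by low oxygen, read 5.16 FPKM in the epithelium and 23.9, 95.2 and 31.3 in the organoids, organoid 2 being the highest. Gapdh was read weakly on both sides (6.63 FPKM in the epithelium and 9.90, 14.3 and 16.9 in the organoids) and has many processed copies, so its value is uncertain. In the amino acid response list 7 of 20 genes were higher and 3 lower (median 0.80, -1.85 on the pan-epithelial scale). The serine synthesis genes Phgdh (difference 2.93 ± 0.37) and Psat1 (difference 2.54 ± 0.66) were higher, while Atf4 read 134 FPKM in the epithelium and 121, 108 and 114 in the organoids.

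Genes of the mitochondrial genome were lower, while most respiratory chain genes of the nucleus were not counted. Of 32 nuclear genes 25 were neither, 7 were higher and 0 lower (1 high by choice, median 0.15, -2.60 on the pan-epithelial scale). Of the 13 protein-coding genes of the mitochondrial genome 12 were lower (median -1.97, -4.81). The subunit gene mt-Co1 read 26898 FPKM in the epithelium and 6937, 6469 and 6377 in the organoids, while its nuclear partner Cox4i1 read 67.3 FPKM in the epithelium and 132, 117 and 122 in the organoids. Mitochondrial transcripts made up 18.8% of summed FPKM in the epithelium and 6.13% to 7.29% in the organoids. Genes of the secretory pathway were mostly not counted, in 21 of 25, and a median of 0.00 (-2.80 on the pan-epithelial scale). The endoplasmic reticulum chaperone gene Hspa5 read 267 FPKM in the epithelium and 184, 182 and 181 in the organoids and the calcium-binding chaperone gene Calr read 242 FPKM in the epithelium and 282, 239 and 229 in the organoids.

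Immediate early genes, which cells switch on within minutes of a stimulus, were lower in 21 of 28 and higher in 2 (4 low by choice, median -1.90, -4.55 on the pan-epithelial scale). Fos read 1367 FPKM in the epithelium and 46.9, 85.2 and 99.8 in the organoids, a difference of -4.20 ± 0.57, and Fosb read 347 FPKM in the epithelium and 0.111, 1.03 and 4.28 in the organoids. Jun read 357 FPKM in the epithelium and 14, 26.8 and 21 in the organoids. Atf3, a stress factor, read 232 FPKM in the epithelium and 4.98, 12.3 and 2.32 in the organoids. In all 4 the epithelium was far above every culture. The epithelial sample had been digested with collagenase and the organoids were taken from culture, so handling and tissue of origin cannot be told apart here. Hspa1b, a heat shock gene, read 55.4 FPKM in the epithelium and 40.0, 39.3 and 42.3 in the organoids and was not counted. The 2 higher genes were Myc (13.5 FPKM in the epithelium and 86, 79.8 and 57 in the organoids) and Ier5 (19.1 FPKM in the epithelium and 50.9, 50.5 and 51.4 in the organoids).

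Interferon stimulated genes were lower in 29 of 30 and higher in 0, with a median of -2.53 (-4.93 on the pan-epithelial scale). Of the 30, 15 were low by choice. Isg15, a ubiquitin-like protein, read 44.6 FPKM in the epithelium and 1.00, 1.69 and 1.17 in the organoids, a difference of -4.33 ± 0.22. Ifit1, an antiviral RNA-binding protein with close relatives, read 15.8 FPKM in the epithelium and 0.261, 1.65 and 0.482 in the organoids. Gbp2, a guanylate-binding protein, read 53.8 FPKM in the epithelium and 0.276, 0.947 and 0.0877 in the organoids. The cultures were low in all 3, with organoid 2 the highest. Irf7, a factor that amplifies the response, read 17.9 FPKM in the epithelium and 0.535, 1.60 and 0.795 in the organoids. The promoters of the first 2 genes (RefSeq, GRCm38.p6, 140 bases before the start) are shown with the interferon-stimulated response element (ISRE) letters, GAAA, any 2 bases and GAAA again, searched on both strands, in capitals.
Isg15, chr4:156200819-156200958, minus strand: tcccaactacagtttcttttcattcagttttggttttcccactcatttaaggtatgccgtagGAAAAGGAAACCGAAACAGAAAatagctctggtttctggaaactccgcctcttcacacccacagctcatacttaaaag
Ifit1, chr19:34640749-34640888, plus strand: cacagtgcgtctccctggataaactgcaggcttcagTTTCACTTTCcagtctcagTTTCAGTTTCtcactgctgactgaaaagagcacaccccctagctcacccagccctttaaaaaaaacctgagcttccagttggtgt
Isg15 held 3 overlapping matches and Ifit1 held 2 on the reverse strand. In the 250 bases before the start, these letters stood in 10 of 22 promoters of the list (45.5%), against 2.83% of all promoters and 4.35% of those of all genes counted lower.

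Of 15 genes of MHC class I presentation 11 were lower and 0 higher (3 low by choice, median -1.98, -4.58 on the pan-epithelial scale). B2m, the light chain of class I molecules, read 1798 FPKM in the epithelium and 183, 297 and 149.5 in the organoids, a difference of -3.15 ± 0.51. Psmb8, an immunoproteasome subunit, read 13.3 FPKM in the epithelium and 0.669, 1.86 and 0.258 in the organoids. Nlrc5, the transactivator of class I genes, read 5.58 FPKM in the epithelium and 0.00743, 0.0326 and 0.0260 in the organoids. The heavy chain gene H2-K1, whose reads its relatives may share, read 108 FPKM in the epithelium and 49.9, 58.8 and 32.4 in the organoids. The 10 class II genes had a median of -3.98 (-6.38), and all 10 were low by choice. Cd74, the invariant chain, read 401 FPKM in the epithelium and 0.448, 0.472 and 0.0626 in the organoids, and the organoids lay near 0. Leukocytes carry class II genes and interferon targets at high levels, and the 22 leukocyte genes summed to 790.0 scaled FPKM in the epithelium and to 7.25, 14.1 and 6.07 in the organoids. Their part in these lower values was not tested.

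In basement membrane and integrin genes 16 of 30 were lower and 7 higher (1 high and 7 low by choice, median -1.14, -3.56 on the pan-epithelial scale). Over all members 25.0% were lower and 15.4% higher. Lamb3, a chain of the laminin that anchors epithelium, was among the higher genes at 3.46 FPKM in the epithelium and 86.6, 96.2 and 27.6 in the organoids. The integrin genes Itga2 (difference 2.94), Itga3 (difference 2.40) and Itgb6 (difference 3.34) were higher too. The laminin genes Lama2 (7.38 FPKM in the epithelium and 0.00773, 0 and 0.00540 in the organoids) and Lama4 (19.6 FPKM in the epithelium and 1.09, 3.52 and 0.907 in the organoids) of muscle and vessels were lower, as were Nid1 (difference -3.17) and Hspg2 (difference -1.84). Of 23 epithelial proteases and inhibitors 10 were higher and 5 lower (5 high and 2 low by choice, median 0.95, -1.65 on the pan-epithelial scale), and without organoid 2 the median was 0.38, with 0.49, 1.89 and 0.28 in organoids 1, 2 and 3. The membrane protease gene Tmprss4 stood at 0.989 FPKM in the epithelium and 62.9, 38.8 and 48.6 in the organoids, and Serpinb5 at 1.07 FPKM in the epithelium and 65.2, 49.6 and 28.1 in the organoids. The trypsin inhibitor gene Spink1, a product of acinar cells, was lower at 174 FPKM in the epithelium and 0.150, 0.131 and 0 in the organoids. Cilia and cystic disease genes were mostly not counted, in 20 of 23 (2 high and 1 low by choice, median -0.13, -2.41). Pkd1 was the 1 lower gene at 24.9 FPKM in the epithelium and 2.47, 4.16 and 2.66 in the organoids. Pkd2, its channel partner, read 13.3 FPKM in the epithelium and 10.0, 14.4 and 12.3 in the organoids.

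The 10 most abundant nuclear genes of the organoids were Eef1a1, Krt8, Krt18, Clu, Rplp1, Eef2, Krt19, Rplp0, Rpl8 and Actb, that is genes of keratins, translation factors, ribosomal proteins, clusterin and actin. Krt8, the partner of keratin 18 in simple epithelium, read 181 FPKM in the epithelium and 4429, 3118 and 1489 in the organoids. In the epithelium the 10 most abundant were 9 genes of digestive enzymes and their cofactor (Ctrb1, Prss2, Try4, Try5, Pnlip, Clps, Cela1, Cela2a and Cpa1) and Acta2.

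Genes counted higher, lower or neither differed in kind and promoter. Processed pseudogenes, whose reads may belong to their parent genes, were higher in 29.2% of 800 members and lower in 7.38%, while long intergenic RNAs were higher in 7.96% of 201 and lower in 32.3%. Among protein-coding members with a promoter in the reference, the ratio of observed to expected CpG in the 250 bases before the start was at least 0.6 in 39.8% of 2323 lower genes, against 67.3% of 1465 higher genes and 75.5% of 6189 others.

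The cultures differed among themselves in a limited number of genes. The range over the 3 organoids reached 1 (2-fold) in 1549 members (10.3%). In 535 of these organoid 2 was farthest from the middle of the 3 and higher, in 186 farthest and lower. Organoid 3 was farthest and higher in 191 and lower in 381, and organoid 1 in 129 and 127. The widest ranges included those of Hsp90aa1, Mmp13, Il11, Rrp1, Otop3, Csf3, Ccl7, Lrg1 and Vim. Mmp13 (chr9:7272514-7283331), a collagenase, read 2.34, 77 and 1.72, and Il11 (chr7:4772373-4782857), a cytokine, read 1.10, 31.1 and 0.504. Csf3, a granulocyte growth factor, read 1.70, 48 and 2.72, and Vim, the mesenchymal filament vimentin, read 0.998, 27.8 and 0.772. Organoid 2 was the highest in these and in Otop3, Ccl7 and Lrg1. Most fibroblast genes were near 0 in organoid 2 as well, for example Col1a1 at 0.169, Dcn at 0 and Pdgfra at 0.0332, and the list summed to 166, 427 and 65.1 FPKM in organoids 1, 2 and 3, of which Fbln2 made up 349.7 in organoid 2. Without organoid 2 the difference of Mmp13 was 1.33 and that of Il11 0.49, against 2.90 and 1.88 with it, and those of Csf3 and Otop3 were 1.38 and 0.85 against 2.70 and 2.06. Without organoid 1 the difference of Lrg1 was -0.88 against -1.96. Division genes went the other way, with organoid 2 lowest in the replication medians of 2.14, 1.43 and 2.16.

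**Figure D5:**
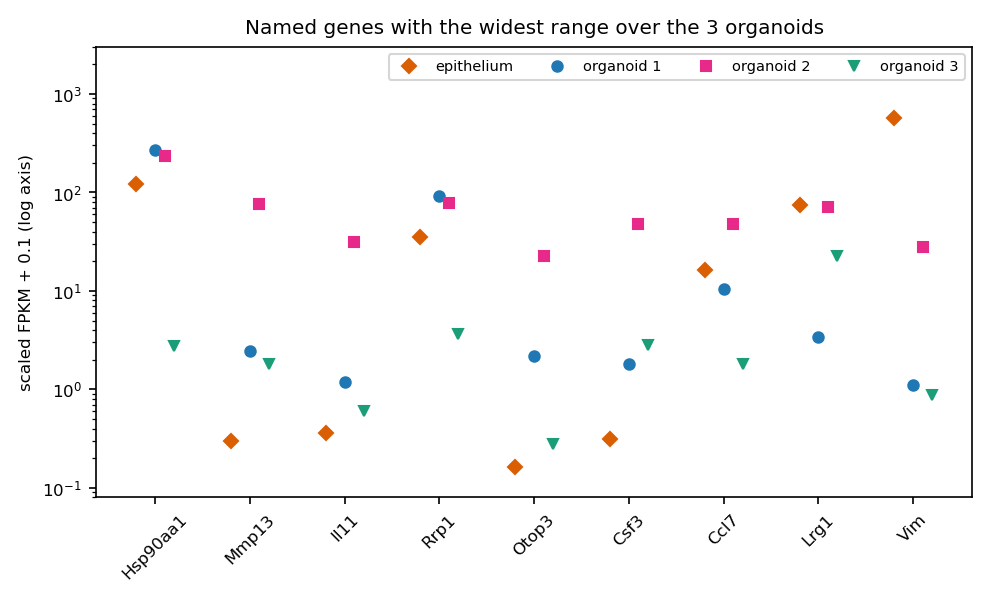
Scaled FPKM + 0.1 (log axis) in the epithelium and in each of 3 organoids for 9 named genes with the widest ranges over the organoids. Organoid 2 is the highest culture in 7 of them, and organoid 3 is the lowest in Hsp90aa1 and Rrp1.

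The bile duct pair of the series gives a reference for these medians, for the same genes and with separate epithelial and organoid libraries. These genes were chosen as members on the pancreatic duct libraries alone. The choice thus shapes the pancreatic duct medians more directly than those of the bile duct. Pan-epithelial genes differed by a median of 1.34 there against 3.09 in the pancreatic duct pair, acinar genes by -9.60 against -10.04, and duct factors by 0.72 against 1.56. Mitosis genes differed by 2.40 against 2.80, sterol genes by 2.03 against 1.95, and interferon stimulated genes by -2.39 against -2.53. Glutathione genes differed by 0.65 against 1.67. Some other lists fell farther in the bile duct pair. Gastric and mucous genes differed by -5.55 against -1.28, intestinal genes by -2.81 against -1.10 and MHC class II genes by -5.89 against -3.98. Others fell less far there, such as nerve and Schwann cell genes, at -2.50 against -3.40. With 1 epithelial library on each side, whether the pairs differ was not tested.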

How the data were processed

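Polyadenylated RNA of mouse pancreatic duct was sequenced from NEBNext Ultra libraries, per the labels' protocols, in 3 organoid cultures and 1 epithelial sample. The submitters' processing notes name Bowtie2 2.2.3, HISAT2 2.1.0, TopHat2 and HTSeq 0.6.0 without their roles. The build is GRCm38 by the coordinates, of which 28593 of 31099 matched GENCODE M21 exactly, and whether counting used strand is not given in the sources used here. The authors deposited 1 table of FPKM values with 1 column per library. The unit was read from the values, which gave whole reads (within 0.05 of a read, using GENCODE M21 exon lengths) for 28268 genes (90.5%) in all 8 libraries. Read numbers and floors rest on these and cover counting error only. In 26 entries the symbol had become a date.

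FPKM were scaled by a trimmed mean of log ratios over the 8 libraries (30% of ratios and 5% of levels trimmed at either end), leaving out genes that reached 1 FPKM nowhere. Members, gene lists (44) and naming rules were chosen with earlier results of these data known, so counts in lists are descriptions. Named genes were the 12 widest differences in each direction at 10 scaled FPKM or more, the 10 highest on each side, the 10 widest organoid ranges, and in each list up to 4 counted members a direction by size plus those that define it, all protein-coding with a usable symbol. Some other list members in the text were chosen after their values were seen, and some genes that met the rule are not reported here. Groups came from the labels. Promoters came from RefSeq, 1 per gene, nearest the gene's start, for 10224 members. The counting rule was tested on simulated data. Alternatives covered scaling, pseudocount, minimum, fold and leaving out each organoid. Figures were drawn with matplotlib 3.10.9 and tables computed with numpy 2.4.6 and pandas 2.3.3 under Python 3.11.15. No per-sample column was left aside.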

Additional observations from a re-analysis of the deposited data

Results flagged for a closer look

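For 5 named genes and 1 gene list, every pancreatic duct organoid lay above its epithelium while every bile duct organoid lay below its own. Of the genes, Krt14, Otop3 and Phgr1 were under 1 FPKM in the pancreatic duct epithelium. They were thus high by choice, and their rise in that duct is no result. A flagged gene also had to differ by at least 1 in size on average in both ducts, while the list had no such limit. None of these differences between the ducts was tested, since each epithelium is 1 library.

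Tff3, a trefoil peptide of mucous cells, differed by 2.67 ± 1.10 in the pancreatic duct (SD, n = 3) and by -4.07 ± 0.83 in the bile duct, where it read 1230 FPKM in the epithelium and 44.7, 139 and 61.1 in the organoids. In the pancreatic duct it read 6.11 FPKM in the epithelium and 108, 28.8 and 27.4 in the organoids, so the organoids of both ducts were nearer to each other than the epithelia were. Lgals4, a galectin of gut epithelium, differed by 4.55 ± 1.14 and by -1.30 ± 0.75, with 289 FPKM in the bile duct epithelium and 75.5, 102 and 209 in its organoids. Phgr1 differed by 1.77 ± 0.83 and by -2.51 ± 1.75, from 87.5 FPKM in the bile duct epithelium. Krt14 differed by 2.74 ± 1.71 and by -1.09 ± 0.08, from 3.50 FPKM in the bile duct epithelium. Otop3, which encodes a proton channel, differed by 2.06 ± 2.21, mostly through organoid 2, and by -2.23 ± 0.43. The median of the duct cell markers was 1.36 in the pancreatic duct, with 0.99, 1.73 and 1.29 in organoids 1, 2 and 3, and -0.15, -0.32 and -0.45 in the bile duct organoids. Their median over the mean of the bile duct organoids was -0.00.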

How the results depend on the processing

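No paired analysis was possible because the pancreatic duct epithelium is 1 library with no replicate number. With 6053 genes counted in the comparison, leaving out each organoid in turn gave 5909 to 6245 genes, 2234 to 2415 of them higher and 3675 to 3866 lower. On the pan-epithelial scale 13639 genes were counted (230 higher, 13409 lower) and 3 list medians lay above 0, against 18. With a minimum of 10 FPKM 2985 genes were counted, 1434 of them lower (48.0% against 61.8%), and the intestinal median was 4.19. With a 4-fold rule 2491 were counted, 648 higher and 1843 lower (74.0%). The mean correlation of organoids with epithelium was 0.444 with a pseudocount of 0.1 and 0.186 with a minimum of 10 FPKM, against 0.558. This minimum drops genes low on both sides, which can lower the correlation by itself. Scaling by genes at 10 FPKM in every library, and leaving out the 16 genes that separate the libraries, were chosen after seeing the data, and the first moved the median over all members to -0.29.

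On the pan-epithelial scale the median over all members was -2.58, below each list median given next. Of the 15 lists whose median turned from above to below 0 on the pan-epithelial scale, 11 had a median of at least 1, which became -1.17 (duct factors), -1.08 (duct markers), -0.76 (Wnt), -1.61 (EGF), -0.99 (injury), -0.26 (replication), -1.46 (inhibitors and p53 targets), -1.47 (ribosome biogenesis), -0.58 (sterols), -1.40 (glycolysis) and -0.95 (glutathione). Of named genes counted higher it turned Cftr (-0.60), Clu (-1.06), Eef2 (-1.23), Egfr (-1.19), Erbb2 (-1.27), Erbb3 (-1.06), Fbl (-0.58), Fgfr4 (-1.22), Gclc (-0.47), Hmgcs1 (-0.57), Ier5 (-1.41), Itga3 (-0.40), Ldha (-0.63), Lgr4 (-0.54), Myc (-0.40), Phlda3 (-0.23), Psat1 (-0.15), Rplp0 (-1.57), Scd2 (-0.0075), Spp1 (-0.96) and Znrf3 (-1.23). It moves the level of every gene in the same direction by construction. Under the other alternatives run, no list median of at least 1 in size and no counted named gene changed sign, apart from the intestinal median above. Smaller medians did, among them YAP targets (0.33) and cilia genes (0.60) with a minimum of 10 FPKM, nuclear respiratory chain genes (-0.12) with scaling by genes at 10 FPKM, and tuft genes (0.22) without scaling. Named genes that were not counted also did, such as Hsp90aa1 (1.04) and Rrp1 (1.26) without organoid 3. The limits are the single epithelial library, the tissue it held, an unknown origin of the 3 cultures, and weakly read genes, which a pseudocount of 1 compresses.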
